A study of Mus musculus with 144 samples.

Results

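The serpin A and serpin B genes were every gene row of the count table whose symbol begins with Serpina or Serpinb followed by a number. Leaving out 5 rows named as pseudogenes gave 52 genes of 51912 rows, 25 in clade A and 27 in clade B. Serpina3h, kept by its name, is annotated as a transcribed pseudogene. No measured value chose the genes. They were followed in mouse liver by 3′ mRNA sequencing, which reads 1 short tag near the polyadenylated end of each transcript, so a count does not grow with transcript length. All libraries came from livers of animals labelled male C57BL/6J, kept in equal light and dark phases of 12 h and fed ad libitum. There were 4 series of 36 libraries: total RNA of wild-type liver, RNA from nuclei of wild-type liver (spun through sucrose), polysomal RNA of wild-type liver (sucrose gradient after cycloheximide, which holds ribosomes on mRNA), and total RNA of liver labelled Bmal1-/-. Sampling covered 6 times of day with 6 libraries per series and time, named by zeitgeber time (ZT, counted in hours from lights on): ZT2, ZT6, ZT10, ZT14, ZT18 and ZT22. Bmal1 (gene symbol Arntl) is a core transcription factor of the circadian clock. The labels give no age, do not say whether the allele is lost in the whole animal or which part of the gene is missing, and do not say whether libraries of different series came from the same animals.

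Serpins are a family of proteins that mostly inhibit serine proteases: the protease cuts an exposed loop, the serpin changes shape, and the protease is trapped. Clade A holds secreted proteins of blood plasma made largely by hepatocytes, among them the α1-antitrypsin copies (Serpina1a to Serpina1e in the mouse), the antichymotrypsin-like Serpina3 genes, and the carriers of corticosteroid (Serpina6) and thyroid hormone (Serpina7), which bind hormones and do not inhibit proteases. Clade B holds mostly intracellular inhibitors of granzymes, cathepsins and neutrophil proteases, found in leukocytes and epithelia.

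The genes lie in 4 places, with 24 on chromosome 12 between 103616675 and 104414334, 15 on chromosome 13, 12 on chromosome 1 and Serpina7 alone on chromosome X (RefSeq, GRCm38.p6). The 5 α1-antitrypsin copies sit in the order Serpina1b, Serpina1d, Serpina1a, Serpina1c and Serpina1e, all on the minus strand. Their upstream sequences are shown because the copies share nearly all of these bases while their RNA levels differed. Each window has 117 bases of the minus strand, 5′ to 3′, ending upstream of every annotated start, and capitals mark bases that differ from Serpina1a at the same place.

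Serpina1a: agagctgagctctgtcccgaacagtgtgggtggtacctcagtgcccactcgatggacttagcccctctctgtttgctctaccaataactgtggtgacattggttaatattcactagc
Serpina1b: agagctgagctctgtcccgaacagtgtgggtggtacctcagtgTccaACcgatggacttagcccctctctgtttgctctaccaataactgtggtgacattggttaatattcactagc
Serpina1c: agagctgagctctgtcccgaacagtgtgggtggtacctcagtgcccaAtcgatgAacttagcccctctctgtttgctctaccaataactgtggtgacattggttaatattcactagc
Serpina1d: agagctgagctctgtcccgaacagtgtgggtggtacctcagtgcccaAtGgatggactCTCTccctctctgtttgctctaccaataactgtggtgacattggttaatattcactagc
Serpina1e: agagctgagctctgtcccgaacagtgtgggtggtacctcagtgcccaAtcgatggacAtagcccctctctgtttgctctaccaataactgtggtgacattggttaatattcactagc

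In GRCm38.p6 the windows are chr12:103863625-103863741 for Serpina1a, chr12:103738200-103738316 for Serpina1b, chr12:103904962-103905078 for Serpina1c, chr12:103773634-103773750 for Serpina1d and chr12:103956960-103957076 for Serpina1e. The number of differing bases from Serpina1a was 2 for Serpina1c, 2 for Serpina1e, 3 for Serpina1b and 6 for Serpina1d. The windows were set after the sequences were seen, on the run GGTTAATATTCAC that all 5 share. That run begins 17 bases before the annotated start in Serpina1d, 22 in Serpina1a, 27 in Serpina1b, 28 in Serpina1c and 79 in Serpina1e. Searched on both strands, it occurred in 5 of 32851 RefSeq promoters (0.0152%, each 250 bases before to 50 after a start), those of the 5 copies. HNF1, a liver transcription factor, is known to bind an element of this kind in α1-antitrypsin promoters. The full palindrome of HNF1, searched by name on both strands, was in 3 of the 32851 promoters. None of these belonged to the 16 expressed genes of the family that had a promoter in the set. Of the other letters searched, the STAT motif TTCNNNGAA was in 8.30% of all promoters and in those of Serpina11, Serpina3f, Serpina3g and Serpinb6a, among 16 expressed genes of the family with a promoter in the table. The E-box CACGTG bound by clock factors (7.15% of promoters) and the D-box TTATGTAA (0.938%) matched none of the 16. A match describes letters, and the absence of one says nothing about binding elsewhere.

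Gene counts per library summed to between 5316601 and 9831142 in wild-type total RNA, 1662449 and 6620128 in nuclei, 2578048 and 13068044 in polysomes, and 4379549 and 14281894 in the Bmal1-/- series. Levels are in CPM, each gene's count scaled to a fixed total for its library. Arntl itself averaged 6.73 CPM (SD 5.40, 36 libraries) in wild type and 11.5 CPM (SD 2.98) in the libraries labelled Bmal1-/- (log2 fold change 1.24, SE 0.12, edgeR adjusted p = 4.23e-13), so its 3′ tags did not mark the loss. If those tags lie outside the missing part they check nothing. Daily rhythms, tested as described below, passed in 2260 of 11964 genes in wild-type total RNA and in 1 of 12126 in the Bmal1-/- series. Xist, an RNA of female cells, exceeded 100 CPM in 4 libraries at ZT22 although every animal is labelled male: replicate 5 of wild-type total and of nuclear RNA, replicate 1 of polysomal RNA and replicate 6 of Bmal1-/-. Deviations from group means over 7732 genes were compared between libraries at ZT22. The nuclear (r = 0.689) and the polysomal one (r = 0.469) were both most like replicate 5 of wild-type total RNA. These wild-type libraries may thus come from the same animal, which the labels do not settle. Replicate 4 of wild-type total RNA at ZT2 stood apart for these genes, with Serpina1c at 1807 CPM against 7329 to 16779 in the other 35 libraries, Serpina1d at 1188 against 4943 to 9879, and Serpina11 at 3.95 against 30.1 to 72.3. Replicates 1 to 3 and 4 to 6 differed in several genes, so the sets are given beside the results named below where they differ. The labels name no batch.

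These genes took 3.92% of all gene counts in wild-type total RNA (SD 0.846, range 1.52 to 5.68, n = 36). The share was 4.83% in nuclei, 3.09% in polysomes and 3.62% in the Bmal1-/- series. In wild-type total RNA 22 genes averaged at least 1 CPM, 17 of clade A and 5 of clade B. A further 17 were counted but averaged under 1 count per library over all libraries, with no series mean above 0.190 CPM. The remaining 13 had no count in any library, 12 of them in clade B (Serpinb11, Serpinb13, Serpinb3b to Serpinb3d, Serpinb6d, Serpinb6e and Serpinb9c to Serpinb9g) and 1 in clade A (Serpina1f). With 914423511 counts in all, a count of 0 allows up to 3 counts, or 0.00328 CPM, for counting error only.

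In wild-type total RNA 6 genes held 97.8% of the counts of the 52. Serpina1c ranked 10th of all genes by mean CPM, Serpina1d 17th, Serpina3k 18th, Serpina1e 25th, Serpina1b 26th and Serpina1a 31st. Serpina1c had a median of 11998 CPM (lowest 1807, highest 16779). Serpina1d had a median of 6837 (1188 to 9879) and Serpina3k, an antichymotrypsin-like inhibitor, 5917 (3161 to 11485). Serpina1b (median 4711, 2145 to 6517), Serpina1a (4023, 3175 to 5094) and Serpina1e (3839, 535 to 12301) overlapped across libraries, so their order is not fixed beyond the spread. Relative to its mean, Serpina1e varied most of these 6 between libraries and Serpina1a least.

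Well below these came Serpina3n, an antichymotrypsin-like inhibitor induced in inflammation (213 ± 56.8 CPM, SD, n = 36), and Serpina3m (176 ± 60.7). Serpina10, the protein Z-dependent inhibitor of clotting factor X, was at 141 ± 30.9, and Serpina6, the corticosteroid carrier, at 134 ± 60.2. Serpina12 (vaspin) was at 66.8 ± 55.0, Serpina11 at 44.9 ± 12.7 and Serpina7, the thyroxine carrier, at 16.8 ± 10.6. The clade B genes were lower than these: Serpinb6a, an inhibitor of cathepsin G, at 13.7 ± 3.81, Serpinb1a, an inhibitor of neutrophil elastase, at 5.31 ± 4.47, Serpinb9, an inhibitor of granzyme B, at 5.20 ± 2.00, Serpinb6b at 1.90 ± 0.888 and Serpinb8 at 1.34 ± 0.921. In the same range lay the remaining clade A genes, Serpina3c (8.23 ± 3.02), Serpina3g (2.82 ± 1.61), Serpina3f (2.74 ± 1.73) and Serpina9 (1.96 ± 2.36). In bulk tissue, fewer cells of a type and less RNA per cell cannot be told apart.

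The α1-antitrypsin copies code for closely related secreted proteins; in the mouse they differ in the loop that proteases cut, and not every copy inhibits neutrophil elastase. Reads may be split between copies in counting, so values of single copies are uncertain and the sum is given beside them. The summed count had a median of 30922 CPM in wild-type total RNA (10327 to 44465), 33952 in nuclei (16615 to 64920), 22674 in polysomes (8975 to 41887) and 30573 in the Bmal1-/- series (16150 to 46082). The 4 ranges overlapped, and no test was made on the sum.

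The make-up of that sum differed more. Serpina1e was 13.5% of it in wild-type total RNA (SD 7.68, 1.97 to 27.7) and 3.31% in the Bmal1-/- series (SD 2.92, 0.0981 to 10.6). Serpina1a was 13.3% in wild-type total RNA (SD 4.77), 23.7% in nuclei (SD 5.54), 23.6% in polysomes (SD 4.52) and 19.9% in the Bmal1-/- series (SD 8.67). Serpina1d was 21.3% in wild-type total RNA (SD 2.91) and 10.8% in nuclei (SD 2.14), the lowest of its 4 means. Serpina1c was the most abundant copy in each series by mean share, from 28.3% in polysomes (SD 5.33) to 41.3% in the Bmal1-/- series (SD 9.47).

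**Figure D1:**
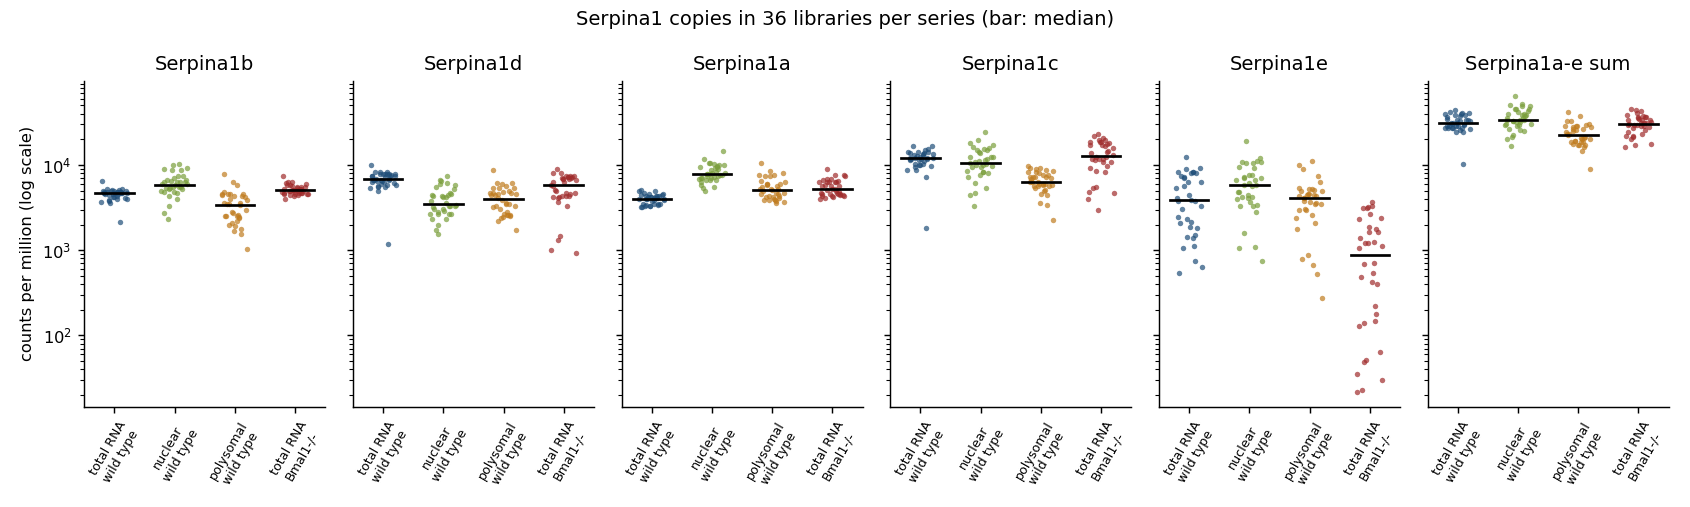
Levels in CPM (log scale) of the 5 α1-antitrypsin copies, in chromosome order, and of their sum in the 4 series; each point is 1 of 36 libraries and the bar is the median. Serpina1e falls to a median of 876 in the Bmal1-/- series against 3839 in wild-type total RNA, while the sums overlap (medians 30573 and 30922).

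The Bmal1-/- series was set against wild-type total RNA to ask which of these genes differ in level when the clock factor is missing. Of the 21 genes with enough counts to test, 11 differed: 6 were higher and 5 lower. Among all 12082 genes tested, 44.2% were called, 21.7% higher and 22.4% lower. The median log2 fold change was 0.05 over the 21 and -0.00 over all genes, and the median absolute change was 0.38 and 0.17. Tests in this and the next 2 comparisons are edgeR's quasi-likelihood F test with Benjamini-Hochberg adjustment over all genes, called at adjusted p under 0.05. The 3 comparisons share the wild-type total libraries.

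The lower genes were Serpina1e, Serpina6, Serpina3k, Serpina3g and Serpina1d. Serpina1e had a median of 876 CPM in the Bmal1-/- series (21.6 to 3673) against 3839 in wild type (535 to 12301). All 36 Bmal1-/- libraries were below the wild-type median and 16 were below the lowest wild-type library. It was 4.19-fold lower (log2 fold change -2.07, SE 0.41, adjusted p = 2.53e-05), and lower at each of the 6 time points. The size differed between the replicate sets: the log2 fold change was -0.82 (SE 0.38, adjusted p = 0.0896) in replicates 1 to 3 and -4.21 (SE 0.60, adjusted p = 6.02e-06) in replicates 4 to 6. Wild-type means were 2954 and 6159 CPM in these sets, and Bmal1-/- means 1687 and 669.

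Serpina3k had a median of 4300 CPM in the Bmal1-/- series (2418 to 7685) against 5917 in wild type, and 8 Bmal1-/- libraries were below the lowest wild-type library. Its log2 fold change was -0.61 (SE 0.12, adjusted p = 3.72e-05). Here too the difference was carried by replicates 4 to 6 (-1.09, SE 0.17, adjusted p = 1.18e-05), and replicates 1 to 3 gave -0.09 (SE 0.14, adjusted p = 0.649). Serpina6 had a median of 71.99 CPM (10.7 to 147) against 126 (60.02 to 409), with 14 libraries below the wild-type range, and a log2 fold change of -0.88 (SE 0.15, adjusted p = 2.19e-06). It was called in both sets, at -1.10 (SE 0.19) and -0.70 (SE 0.22). Serpina1d, at -0.42 (SE 0.14, adjusted p = 0.013), was called in neither set alone. Serpina3g, at a mean of 2.08 CPM against 2.82, had a log2 fold change of -0.54 (SE 0.17, adjusted p = 0.00751). In replicates 1 to 3 alone it was at -0.21 (adjusted p = 0.438), and fitted with all 4 series together it was not called.

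The higher genes were Serpina12, Serpina7, Serpinb6b, Serpinb1a, Serpina11 and Serpina1a. Serpina12 had a median of 267 CPM in the Bmal1-/- series (0.856 to 494) against 57.6 (1.65 to 275), with 15 libraries above the highest wild-type library and 1 below the lowest. It was 3.44-fold higher (log2 fold change 1.78, SE 0.27, adjusted p = 1.01e-07). The 2 sets gave 1.90 (SE 0.22) and 1.64 (SE 0.45), both called.

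Serpina7 had a median of 42.1 CPM (6.17 to 104) against 13.7 (1.22 to 41.0), with 18 libraries above the wild-type range, and was 2.71-fold higher (log2 fold change 1.44, SE 0.22, adjusted p = 1.38e-07). It too was called in both sets, at 1.13 (SE 0.26) and 1.91 (SE 0.30). So the 2 hormone carriers of the family moved in opposite directions, Serpina6 lower and Serpina7 higher. Serpinb6b had a median of 3.71 CPM (1.050 to 8.13) against 1.83 (0.879 to 4.96) and a log2 fold change of 0.94 (SE 0.15, adjusted p = 2.27e-07).

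Smaller differences were found in Serpina11 (0.57, SE 0.11, adjusted p = 3.21e-05), Serpina1a (0.37, SE 0.07, adjusted p = 8.73e-06) and Serpinb1a (0.63, SE 0.25, adjusted p = 0.0355). For Serpina1a all 36 Bmal1-/- libraries were above the wild-type median and 19 above the wild-type range. Serpina11 was called in replicates 1 to 3 and not in 4 to 6 (0.44, adjusted p = 0.0903), and Serpinb1a in neither set alone. Neighbouring copies therefore differed in direction: along the chromosome the log2 fold changes were 0.08 for Serpina1b (SE 0.05, not called), -0.42 for Serpina1d, 0.37 for Serpina1a, 0.05 for Serpina1c (SE 0.14, not called), -2.07 for Serpina1e and 0.57 for Serpina11. The difference between copies was not itself tested. Serpina1c was at 0.29 in replicates 1 to 3 (adjusted p = 0.0249) and at -0.30 in replicates 4 to 6 (adjusted p = 0.348). The other genes not called were Serpinb6a, Serpina3n, Serpina10, Serpina3f, Serpinb9, Serpina9, Serpina3c and Serpina3m, with log2 fold changes from -0.38 to 0.23.

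**Figure D2:**
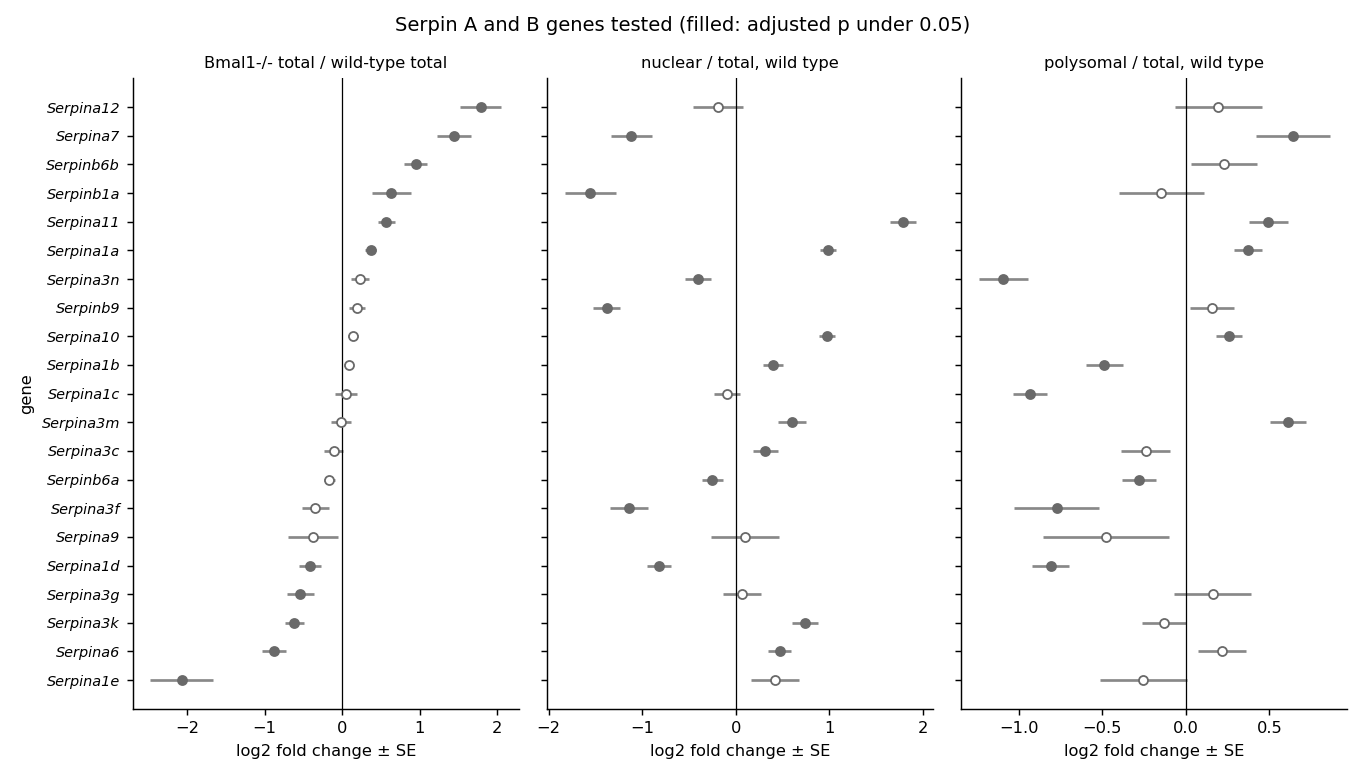
Log2 fold change ± SE of each tested gene in the 3 level comparisons, ordered by the Bmal1-/- comparison, with filled circles at adjusted p under 0.05 (axes differ in range). Serpina12 (1.78) and Serpina1e (-2.07) mark the ends of the Bmal1-/- panel, and Serpina11 (1.78) and Serpinb1a (-1.56) those of the nuclear panel.

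Expression known to differ between male and female liver varied widely between these libraries, and Serpina1e varied with it. The summed CPM of 12 genes higher in male liver had a median of 12151 in wild-type total RNA (333 to 24037) and 7208 in the Bmal1-/- series (445 to 26584). In that list 3 genes were higher and 5 lower of 12 tested, Mup12 at -1.39 (SE 0.42, adjusted p = 0.00593) and Cyp4a12a at -1.17 (SE 0.31, adjusted p = 0.00136) having the largest changes. Over all 12082 genes tested 21.7% were higher and 22.4% lower, shares that also stand beside the next list. Of 13 genes higher in female liver 7 could be tested, of which 1 was higher (Hao2, 2.94, SE 0.58, adjusted p = 2.68e-05) and 2 lower (Cyp2a4, -2.42, SE 0.32, adjusted p = 3.62e-09). Their sum had a median of 20.6 CPM in wild type (3.21 to 1254) and 15.0 in the Bmal1-/- series (2.37 to 527), and no gene of either list was at 0 throughout a series.

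Across the 36 wild-type total libraries, Serpina1e was set against the sum of the male-biased list on the log2(CPM + 1) scale. Pearson's r was 0.616 and Spearman's rho 0.747 (both permutation p = 1e-05, the smallest that 100000 permutations can give). Adjusted over 9 relations, both p were 1e-05 after rounding to the nearest 1e-05. That rounding applies to each adjusted 1e-05 below, so adjusted values may exceed the unadjusted ones. Without the 2 libraries farthest from the median of that sum r was 0.692, and within replicates 1 to 3 and 4 to 6 it was 0.776 and 0.626 (permutation p = 0.00017 and 0.0119, n = 18 each). In the 36 Bmal1-/- libraries r was 0.763 and rho 0.691 (both permutation p = 1e-05, adjusted 1e-05), r = 0.686 without 2 libraries, and 0.59 and 0.658 within the sets (permutation p = 0.0101 and 0.00288). Serpina1e is no member of that list, but the levels share each library's depth. The part of this variation in the Serpina1e result was not tested.

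Serpina1e and Serpina3k also went together, with r = 0.814 and rho = 0.817 in wild type and r = 0.735 and rho = 0.788 in Bmal1-/- (each permutation p = 1e-05, adjusted 1e-05, n = 36). Within the sets r was 0.622 and 0.849 in wild type (permutation p = 0.00945 and 0.00011), and 0.812 and 0.659 in Bmal1-/- (permutation p = 4e-05 and 0.00411). Leaving out 2 libraries gave 0.777 and 0.704. Serpina12 followed Serpina1e in Bmal1-/- (r = 0.73, rho = 0.82, each permutation p = 1e-05, adjusted 1e-05, and 0.834 without 2 libraries). Within its sets r was 0.749 and 0.674 (permutation p = 0.00046 and 0.00016). In wild type that relation had r = 0.0706 and rho = -0.0764 (permutation p = 0.687 and 0.658, adjusted 0.773 and 0.658), r = -0.157 without 2 libraries, and 0.27 and 0.264 within the sets (permutation p = 0.267 and 0.308).

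Serpina7 ran against Serpina1e in wild type (r = -0.523, permutation p = 0.001, adjusted 0.00129; rho = -0.549, permutation p = 0.00063, adjusted 0.00081). Without 2 libraries r was -0.45. Within the sets it kept its sign, at -0.442 and -0.357 (permutation p = 0.0779 and 0.141, n = 18 each), with neither p under 0.05. In Bmal1-/- r was -0.0216 and rho -0.167 (permutation p = 0.901 and 0.329, adjusted 0.901 and 0.37), r = -0.167 without 2 libraries, and -0.267 and -0.137 within the sets (permutation p = 0.284 and 0.584). The 9 relations were chosen after the values were seen. A library of the Bmal1-/- series at ZT18, replicate 5, had the lowest Serpina1e (21.6 CPM), Serpina12 (0.856) and Serpina6 (10.7) and the lowest male-biased sum (445) of that series.

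Of the 4 libraries with Xist above 100 CPM, those of the wild-type series had low male-biased sums: 333 CPM in total RNA, 228 in nuclei and 342 in polysomes, each below its other 35 libraries. Their female-biased sums were above the other 35 of each series, at 1254 CPM (others up to 147), 942 (up to 79.1) and 878 (up to 87.1). Serpina12 was likewise below the others there (1.65, 0.747 and 3.17 CPM) and Serpina6 above them (409, 697 and 880 CPM). The Bmal1-/- one, with a male-biased sum of 3395, a female-biased sum of 16.4 and Serpina6 at 136, lay within the range of its series. Without these libraries the same number of genes (11) was called in the Bmal1-/- comparison, and Serpina1e, Serpina12, Serpina7 and Serpina6 were called in the same direction.

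**Figure D3:**
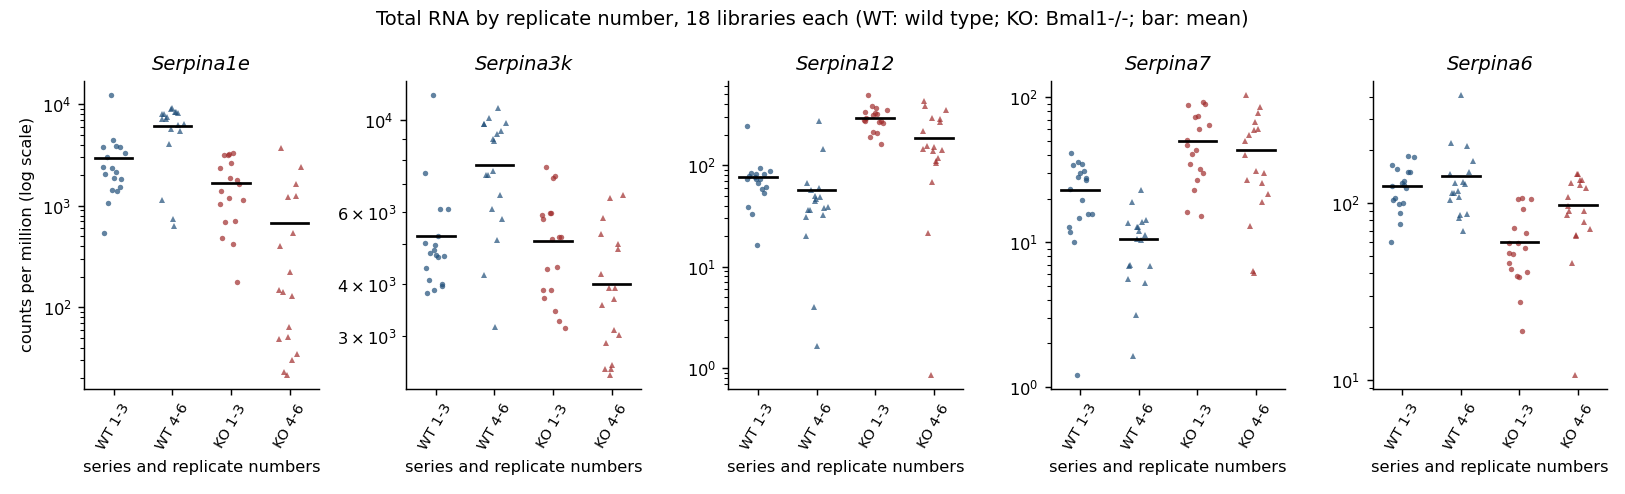
Levels in CPM (log scale) of 5 genes in wild-type (WT) and Bmal1-/- (KO) total RNA, split by replicate number; each point is 1 of 18 libraries and the bar is the mean. For Serpina1e the means are 2954 and 6159 in wild type and 1687 and 669 in Bmal1-/-, while Serpina12 and Serpina7 are higher in Bmal1-/- in both sets.

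Nuclear RNA was compared with total RNA of wild-type liver. The change in CPM is relative to the other RNAs of each fraction, not an amount per cell. Of 20 genes tested 15 differed, 8 higher in nuclei and 7 lower, where 83.8% of all 11864 genes were called (41.6% higher and 42.1% lower). The median absolute log2 change was 0.53 over the 20 genes and 0.74 over all genes. Higher in nuclei were Serpina11, Serpina1a, Serpina10, Serpina3k, Serpina3m, Serpina6, Serpina1b and Serpina3c, all of clade A. Lower were the 3 clade B genes tested, Serpinb1a, Serpinb9 and Serpinb6a, and 4 of clade A, Serpina3f, Serpina7, Serpina1d and Serpina3n.

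Serpina11 had a median of 156 CPM in nuclei (63.6 to 326) against 42.7 in total RNA (3.95 to 72.3), and 35 of 36 nuclear libraries were above the range of total RNA. Its log2 fold change was 1.78 (SE 0.14, adjusted p = 3.20e-19). Serpina1a separated as widely, with a median of 7756 CPM (5011 to 14714) against 4023, and 35 of 36 libraries above the range of total RNA (0.99, SE 0.09, adjusted p = 3.06e-17). Serpina10 had a median of 284 CPM (152 to 558) against 136 (70.3 to 235), with 29 libraries above the range (0.97, SE 0.09, adjusted p = 1.78e-16). These 3 were higher at all 6 time points and kept their call in each of 10 alternatives. Serpina3k was higher by 0.73 (SE 0.14, adjusted p = 2.41e-06), from a median of 9923 CPM in nuclei (3278 to 21601).

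Serpina1d went the other way, with a median of 3464 CPM in nuclei (1560 to 7504) against 6837, and 35 of 36 nuclear libraries below the median of total RNA (-0.82, SE 0.13, adjusted p = 4.12e-08). Serpina1c did not pass the test (median 10661 CPM, -0.10, SE 0.14, adjusted p = 0.506), nor did Serpina1e (median 5839 CPM, 0.41, SE 0.26, adjusted p = 0.128). Serpina1e was called higher in nuclei in replicates 1 to 3 alone (0.87, adjusted p = 0.0126) and with the replicate number as a block (0.52, adjusted p = 0.0349, and 0.55, adjusted p = 3.46e-06, within time points). Serpina1b was at 0.40 (SE 0.11, adjusted p = 0.000487), and not called in replicates 4 to 6 alone (0.20, adjusted p = 0.128). Serpina1e levels in nuclear and total RNA went together over libraries of equal number and time point: over 36 such pairs r was 0.905 and rho 0.9 (each permutation p = 1e-05, adjusted 1e-05), 0.876 without 2 pairs, and 0.956 and 0.872 within the sets (permutation p = 1e-05 and 0.00026).

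Among the clade B genes, Serpinb1a had a median of 1.40 CPM in nuclei (0 to 12.6) against 4.38 (0.796 to 23.0), a log2 fold change of -1.56 (SE 0.27, adjusted p = 6.62e-07). Serpinb9 had 1.94 CPM (0.331 to 3.97) against 5.04 (1.81 to 9.54), with all 36 nuclear libraries below the median of total RNA (-1.38, SE 0.15, adjusted p = 7.74e-14). Serpina3f (-1.14, SE 0.20, adjusted p = 6.60e-07) and Serpina7 (-1.12, SE 0.22, adjusted p = 5.14e-06) were lower as well. Serpina7 was thus lower in nuclei than in total RNA at each time point, with a median of 6.95 CPM (0.626 to 22.5). Smaller or less stable were Serpina3m (0.60, not called in replicates 4 to 6), Serpina6 (0.47, likewise), Serpina3n (-0.40, and -0.04 in replicates 1 to 3), Serpina3c (0.31, and -0.01 in replicates 1 to 3) and Serpinb6a (-0.25, lost in 5 of 10 alternatives). Serpina12, Serpina3g and Serpina9 were not called (-0.19 to 0.10).

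Polysomal RNA, the mRNA carrying several ribosomes, was compared with total RNA in the same way. Of 21 genes tested 11 differed, 5 higher in polysomes and 6 lower, where 76.1% of all 11556 genes were called (38.4% higher and 37.6% lower). The median absolute log2 change was 0.28 over the 21 genes and 0.59 over all genes. Higher were Serpina7, Serpina3m, Serpina11, Serpina1a and Serpina10. Lower were Serpina3n, Serpina1c, Serpina1d, Serpina3f, Serpina1b and Serpinb6a.

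Serpina1c had a median of 6357 CPM in polysomes (2288 to 9753) against 11998 in total RNA, and all 36 polysomal libraries were below that median (-0.93, SE 0.10, adjusted p = 3.75e-13). Serpina1d had a median of 3956 CPM (1714 to 8744) against 6837 (-0.81, SE 0.11, adjusted p = 1.57e-09). Serpina3n, at a median of 87.5 CPM (38.4 to 365) against 197 (134 to 382), was lower by the most, with 27 libraries below the range of total RNA (-1.09, SE 0.15, adjusted p = 8.25e-10). Serpina1b was lower too (-0.49, SE 0.11, adjusted p = 5.95e-05). These 4 kept their call in each of 11 alternatives.

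Serpina3m had a median of 270 CPM (54.3 to 547) against 179 (63.2 to 310) and was higher by 0.61 (SE 0.11, adjusted p = 5.72e-07), a call also kept in each alternative. The replicate sets need a caution here. None of the 36 polysomal libraries deviated from its group most like the total RNA library of its own number (mean r = -0.133 over 7732 genes). Nearly all were most like a total RNA library of the other set, so results within a set joined unmatched libraries of the 2 series. Whether the matched libraries came from the same animals was not tested. Serpina1a was higher by 0.37 (SE 0.08, adjusted p = 5.62e-05), from 0.06 in replicates 4 to 6 alone (adjusted p = 0.612). Serpina11 was at 0.49 (SE 0.12, adjusted p = 0.000155) and Serpina10 at 0.26 (SE 0.08, adjusted p = 0.00212). Both lost the call in replicates 4 to 6, where Serpina10 was at 0.00, and Serpina10 also without polysomal replicate 1 (0.11, adjusted p = 0.135). Mean Serpina10 was 185 and 170 CPM in polysomal replicates 1 to 3 and 4 to 6, and 132 and 151 in those of total RNA. Serpina3f was lower by -0.77 (SE 0.25, adjusted p = 0.00501), and at -0.18 in replicates 4 to 6 (adjusted p = 0.606). Serpinb6a was lower by -0.28 (SE 0.10, adjusted p = 0.0122) and called in neither set alone.

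For 3 genes the polysomal comparison differed in sign between replicate sets of equal number. The libraries of the 2 series were mostly most alike across these sets and not within them. The part of this mismatch in the change of sign was not tested. Serpina7, at a median of 21.6 CPM in polysomes (3.15 to 99.0) against 13.7, was higher overall (0.64, SE 0.22, adjusted p = 0.00756), but was -0.77 in replicates 1 to 3 (adjusted p = 0.00161) and 1.84 in replicates 4 to 6 (adjusted p = 2.14e-08). Serpina3k, not called overall (-0.13, SE 0.13, adjusted p = 0.375), was 0.57 (adjusted p = 0.000883) and -0.91 (adjusted p = 2.49e-06). Without polysomal replicate 1 it was -0.30 (adjusted p = 0.0366). Serpina1e, not called overall (-0.25, SE 0.26, adjusted p = 0.376), was 0.82 (adjusted p = 0.0369) and -1.23 (adjusted p = 0.00267). Mean Serpina1e was 5111 CPM in polysomal replicates 1 to 3 and 3113 in 4 to 6, and 2954 and 6159 in total RNA, which cannot be read as an opposite order in the same animals. The remaining genes not called, Serpina3c, Serpina6, Serpina9, Serpinb9, Serpinb6b, Serpina12, Serpina3g and Serpinb1a, had log2 fold changes from -0.48 to 0.23.

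Daily rhythm was tested with a 24 h cosine and sine in each series (the same edgeR test), and the size is the ratio of the fitted peak to the fitted trough. In wild-type total RNA 2 of 22 genes were called, Serpina3m and Serpinb9, where 18.9% of all 11964 genes were. Serpina3m was lowest at ZT2 (133 ± 38.9 CPM, SD, n = 6) and ZT6 (136 ± 28.9), and highest at ZT18 (217 ± 50.9) and ZT22 (220 ± 61.6). ZT10 (156 ± 47.5) and ZT14 (193 ± 73.6) lay between. Its fitted ratio was 1.83 with a peak at ZT18.1 (adjusted p = 0.00377). Serpinb9 had the opposite phase, from 6.93 ± 1.15 CPM at ZT6 and 6.12 ± 1.503 at ZT10 down to 3.84 ± 1.66 at ZT18 and 3.42 ± 1.18 at ZT22, with 5.61 ± 2.07 at ZT2 and 5.25 ± 2.30 at ZT14. Its ratio was 1.83 with a peak at ZT7.50 (adjusted p = 0.00605). The ranges of single time points overlapped for Serpina3m, while all 6 libraries of Serpinb9 at ZT6 (5.53 to 8.42) were above those at ZT22 (1.81 to 5.02). In replicates 4 to 6 alone neither gene was called, and Serpinb9 was not called in replicates 1 to 3.

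In polysomes 1 of 19 genes was called, Serpinb9, with 7.90% of all 10691 genes. It was at 8.69 ± 3.49 CPM at ZT6 and 2.83 ± 1.45 at ZT18 (SD, n = 6), with a ratio of 2.35 and a peak at ZT7.09 (adjusted p = 0.0375). That call was lost without polysomal replicate 1, without the libraries with high Xist, in each replicate set alone and with time as a factor. In nuclei 0 of 16 genes were called (5.99% of all 11172 genes), and 0 of 16 had an unadjusted p under 0.05. In the Bmal1-/- series 0 of 21 were called (0.00825% of all 12126), with 1 at an unadjusted p under 0.05, Serpina10. The 5 α1-antitrypsin copies were not called in any series, with ratios in wild-type total RNA from 1.03 for Serpina1e (adjusted p = 0.998) to 1.34 for Serpina1c (adjusted p = 0.264).

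Differences in rhythm between series were tested as interactions in edgeR. Between Bmal1-/- and wild type 0 of 21 genes passed, where 5.11% of all 12082 genes did, and 1 had an unadjusted p under 0.05. That was Serpina3m, with a ratio of 1.25 in Bmal1-/- (unadjusted p = 0.0175, adjusted p = 0.163). For Serpinb9, at a ratio of 1.15 in Bmal1-/-, the adjusted p was 0.311, so for neither gene is a change of rhythm shown. Between nuclei and total RNA 0 of 20 passed (0% of 11864 genes) and between polysomes and total RNA 0 of 21 (0% of 11556), with none at an unadjusted p under 0.05. Median-ratio size factors in place of TMM called 0 in all 3 tests too.

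Serpina6 is given here because its result rested on the high-Xist libraries, a choice made after its values were seen. With all libraries it was not called rhythmic in wild-type total RNA (ratio 1.39, adjusted p = 0.346), nuclei (1.58, adjusted p = 0.337) or polysomes (1.88, adjusted p = 0.191). Without the 1 high-Xist library at ZT22 of each series, the edgeR test called it in all 3: at a ratio of 1.60 and a peak at ZT12.9 in total RNA (adjusted p = 0.0111), 1.84 and ZT12.8 in nuclei (adjusted p = 0.0284), and 1.75 and ZT15.0 in polysomes (adjusted p = 0.0228). Because the libraries left out may come from the same animal, these calls are not 3 separate results. The same fits called 17.7%, 5.64% and 8.02% of all genes tested. Without polysomal replicate 1 as a whole it was not called in polysomes (1.61, adjusted p = 0.121). With all libraries, replicates 1 to 3 of total RNA alone gave a call (1.84, adjusted p = 0.00224) and replicates 4 to 6 did not (1.31, adjusted p = 0.805). Its mean in total RNA then ran from 98.4 ± 32.4 CPM at ZT2 (SD, n = 6) through 155 ± 42.1 at ZT10 and 157 ± 50.8 at ZT14 to 107 ± 20.6 at ZT22 (n = 5). In the Bmal1-/- series it was not called either way (ratio 1.41 with all libraries, adjusted p = 0.9999, and 1.45 without, adjusted p = 0.9997), and its means stayed between 51.7 and 91.3 CPM. Serpina3c was also called in total RNA without that library (ratio 1.71, adjusted p = 0.0222, against 1.59 and 0.0805 with it).

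**Figure D4:**
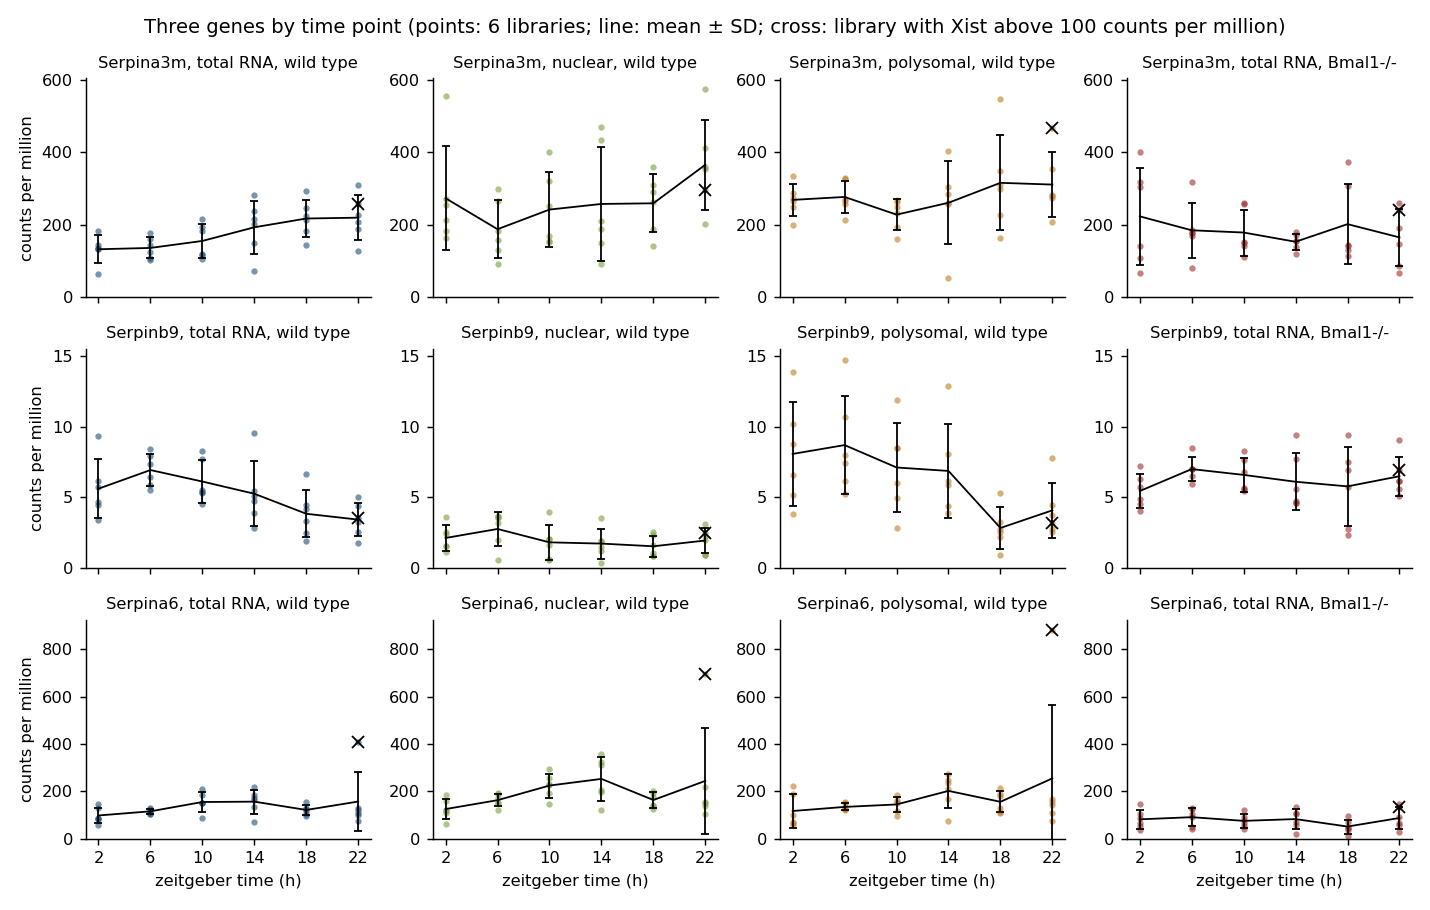
Levels in CPM of Serpina3m, Serpinb9 and Serpina6 against zeitgeber time in the 4 series, with 6 libraries per time point, the line and bars giving mean ± SD, and crosses the libraries with Xist above 100 CPM. Serpina3m in wild-type total RNA rises from 133 at ZT2 to 220 at ZT22, and the crosses for Serpina6 at ZT22 (409, 697 and 880) lie above all other wild-type points of their panels.

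Use of alternative polyadenylation sites could be tested in 3 of these genes, Serpina1c, Serpina11 and Serpina7, with 8 sites in all (positions in mm10 from the authors' site list; all on the minus strand). A site's share is its part of the gene's counts at assigned sites. Serpina1c had a site at chr12:103894915-103895206, across the annotated end of the gene, and one at chr12:103894649-103894849, which starts 77 bases past that end. The gene count leaves the second out. In wild-type total RNA the site past the end held 19.7% (SD 3.73, 15.8 to 39.4, n = 36).

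In polysomes 4 of the 8 sites were called (edgeR, 70.5% of 12533 sites). The site past the end of Serpina1c held 30.7% of its counts (SD 6.02, 19.2 to 43.3), 11.01 points more than in total RNA (adjusted p = 2.61e-14), and the other site correspondingly less. In CPM the site past the end was at 2863 ± 833 in polysomes and 2809 ± 518 in total RNA (SD, n = 36), against 6545 ± 1745 and 11871 ± 2766 for the site at the annotated end. Both sites summed to 9408 ± 2333 and 14680 ± 3231 CPM. The lower polysomal level of Serpina1c was thus measured at the inner site, and the copies' similarity leaves reads at either site uncertain. For Serpina7 the site at chrX:139080265-139080356 fell from 29.9% to 15.7% (adjusted p = 3.75e-05), and that at chrX:139079248-139079297 rose from 24.6% to 33.9% (adjusted p = 0.00197), the latter not called in replicates 1 to 3. That set too joins polysomal and total RNA libraries that did not match by number.

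In nuclei 5 of 8 sites were called (edgeR, 78.6% of 11833 sites). The Serpina7 site at chrX:139079790-139079855 held 60.2% (SD 20.8) against 29.7% (SD 7.85) in total RNA (adjusted p = 5.40e-16). Those at chrX:139079248-139079297 (9.19% against 24.6%, adjusted p = 4.40e-08) and chrX:139080265-139080356 (17.1% against 29.9%, adjusted p = 8.08e-06) were lower. The median Serpina7 count over these sites was only 23 in a nuclear library and 69 in total RNA, so single-library shares ran from 0 to 100%. Serpina11's outer site at chr12:103980250-103980417 held 90.8% (SD 4.18) against 84.7% (SD 3.73, adjusted p = 3.53e-07), and the inner one at chr12:103980442-103980546 the rest. In replicates 1 to 3 alone the outer site was not called (adjusted p = 0.0666). Both Serpina1c sites kept their shares within the spread, at 19.8% (SD 4.16) for the one past the end (adjusted p = 0.911).

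In the Bmal1-/- series 1 of 8 sites was called (edgeR, 9.03% of 13373 sites). The Serpina7 site at chrX:139079790-139079855 held 24.1% (SD 5.59) against 29.7% (adjusted p = 0.033), which was called in neither replicate set alone. The Serpina1c site past the end held 23.6% in Bmal1-/- (SD 9.46, 12.6 to 51.4) and was not called (adjusted p = 0.0937). Without wild-type replicate 4 at ZT2, 2 of the 8 sites were called. Over time in wild-type total RNA 0 of 8 sites were called (0.352% of 13084), with 1 at an unadjusted p under 0.05.

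**Figure D5:**
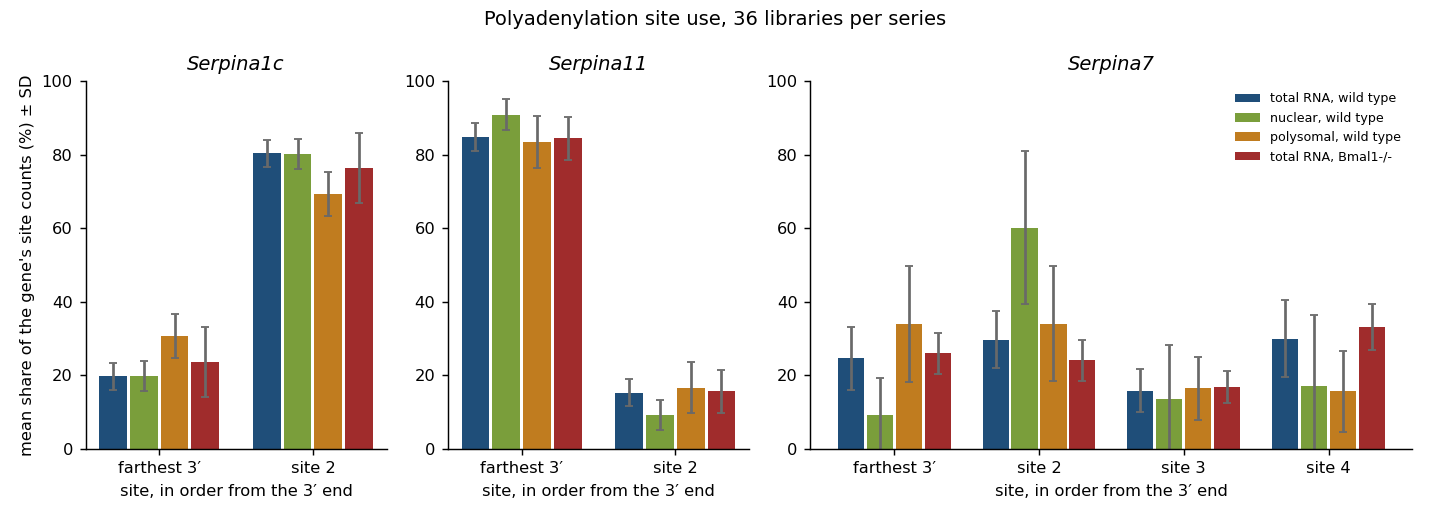
Mean share (%) of each polyadenylation site in 3 genes in the 4 series, sites in order from the 3′ end, with bars giving SD over 36 libraries (bars reaching below 0 are drawn to the axis). In polysomes the farthest site of Serpina1c is at 30.7% against 19.7% in total RNA, and in nuclei the second site of Serpina7 is at 60.2% against 29.7%.

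The counts in the lists that follow stand beside the shares over all genes, 44.2% called in Bmal1-/- (21.7% higher and 22.4% lower), 83.8% in nuclei, 76.1% in polysomes and 18.9% rhythmic in wild-type total RNA. The other serpins of the genome were taken as a list of 12 (clades C to I and angiotensinogen), of which 8 could be tested. In the Bmal1-/- series 5 were higher, led by Agt (0.69, SE 0.09, adjusted p = 5.58e-10), and 1 lower, Serpine2, an inhibitor of thrombin (-1.77, SE 0.26, adjusted p = 4.34e-08). In nuclei 5 were higher and 0 lower, with Agt at 2.16 (SE 0.13) and Serpinh1, a collagen chaperone, at 1.65 (SE 0.15). In polysomes 4 were higher and 2 lower. Of 29 proteases that serpins act on or that share their setting 20 could be tested. In Bmal1-/- 6 were higher, among them Cela1 (1.25, SE 0.17), and 8 lower, among them Casp1 (-0.61, SE 0.16). Nuclei had 8 higher and 12 lower, where 83.8% of all genes were called, and polysomes 5 and 12, where 76.1% were.

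Of 16 transcription factors and cytokine receptors known to act on these genes in liver, all tested, 4 were higher in Bmal1-/- (Il1r1 0.63, SE 0.14, and Foxa2 0.52, SE 0.10, changed most) and 5 lower. The counts were 6 and 6 in nuclei, and 6 and 7 in polysomes. Of 12 genes for folding, degradation and export of secreted proteins in the endoplasmic reticulum, all tested, 1 was higher (Canx, 0.19, SE 0.07) and 3 lower in Bmal1-/- (Lman1 -0.27, SE 0.05). Here 4 and 6 differed in nuclei, and 4 and 5 in polysomes. In wild-type total RNA 7 of those 12 and 6 of the 16 regulators were called rhythmic, where 18.9% of all genes were.

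Of 24 acute phase genes, all tested, 10 were higher and 7 lower in Bmal1-/-, with Saa1 (-2.69, SE 0.36) and Saa2 (-2.60, SE 0.39) changing most. The acute phase serpin Serpina3n was not called there (0.23, SE 0.12, adjusted p = 0.093). Of 7 hepatocyte markers, 1 was higher and 2 lower in Bmal1-/-, and their summed median was 71090 CPM in wild type (30478 to 91538) and 52028 in Bmal1-/- (25763 to 113148). Hepatocyte markers were thus abundant in every library. Of 8 Kupffer cell and macrophage markers 7 were lower in Bmal1-/-, with Marco at -1.53 (SE 0.34), Adgre1 at -0.78 (SE 0.15) and a summed median of 230 CPM (103 to 485) against 262 (144.05 to 883). Of 8 neutrophil markers 2 could be tested and 1 was lower (S100a8, -0.98, SE 0.35). Their summed median was 6.21 CPM (1.36 to 31.0) against 3.09 (1.12 to 65.4), with Mpo at 0 throughout the Bmal1-/- series. Leukocytes are known to express Serpinb1a, Serpinb6b and Serpina3g, and the part of these cells in the 3 results was not tested.

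Of 6 markers of bile duct cells 2 could be tested and both were higher in Bmal1-/-, Sox9 at 1.44 (SE 0.10) and Spp1 at 1.20 (SE 0.15), with a summed median of 73.7 CPM (46.1 to 136) against 25.7 (16.2 to 67.1). Their part in the clade B results was not tested. Of 8 endothelial markers 1 was higher and 3 lower, and of 4 tested markers of stellate and mesothelial cells 2 were higher and 1 lower. None of 8 lymphocyte and natural killer cell markers had enough counts to test. The sum of 7 markers of exocrine pancreas reached 4347 CPM in 1 polysomal library against a polysomal median of 25.4, and 0 of the 7 were called in polysomes by edgeR.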

How the data were processed

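Gene and polyadenylation-site counts, as deposited by the authors, were raw read counts per gene and per site, read with the site list's own positions (mm10). Reads were aligned with STAR 2.4.2a, per the submitters' processing notes, which also name edgeR, HOMER and GRCm38.p5. Strand use and the treatment of reads matching several copies are not given in the sources used here. CPM are gene counts scaled by each library's summed gene count. Levels and rhythms were tested with edgeR 4.0.16 (quasi-likelihood F test, robust, TMM, genes averaging at least 10 counts per library in the fit), with all 6 time points weighted equally in level comparisons, Benjamini-Hochberg over all genes, and a threshold of 0.05. A standard error is the absolute log2 fold change over the square root of F. Site use was tested on site counts with the gene's summed site count plus 0.5 as offset, for sites with at least 5% of counts in genes averaging at least 50. Sites were given to genes by strand or up to 1000 bases past the end. Where no promoter gave the strand (it affects Serpina10, Serpina6, Serpina9, Serpina3k, Serpina3m and Serpinb1a among the counted genes, none tested for site use), the strand of most site counts was used, which matched 92.2% of known strands. Scripts were tested on simulated data.

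The genes and lists were chosen with earlier results of these data known. Values in full are given for the 6 most abundant genes and the α1-antitrypsin copies, for up to 5 called genes with the largest changes per level comparison (averaging at least 20 counts), and for genes called rhythmic. Others are given by ranges, with Serpina6 over time, the relations between genes, the upstream windows and some smaller calls added after their values were seen. The labels call the 6 libraries of a group replicates without saying that they are separate animals, so p-values measure the spread between libraries, which may be technical. Of 360 pairs of libraries within groups, 0 were identical and each differed beyond sampling noise (smallest chi-square per degree of freedom 4.03). Alternatives were DESeq2 1.42.0, median-ratio size factors, a lower filter, replicate sets, replicate blocks, all series in 1 fit, time as a factor, and leaving out doubtful libraries. Leaving out wild-type replicate 4 at ZT2 was chosen after seeing the data. The authors' normalized tables were not used. Every count column mapped to a sample.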

Additional observations from a re-analysis of the deposited data

Results flagged for a closer look

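For the 3 genes given by time point, each group of 6 libraries was searched for a single library far from the other 5. Of 72 groups 5 had one. Chance gives about 1 in 20, but Serpina6 was put among the genes after its values at ZT22 were seen, so the count is not to be read against chance. Serpina6 was at 409 CPM in replicate 5 of wild-type total RNA at ZT22 (others 76.0 to 129), 697 CPM in replicate 5 of nuclear RNA at ZT22 (others 106 to 217) and 880 CPM in replicate 1 of polysomal RNA at ZT22 (others 76.8 to 167), the 3 wild-type libraries with Xist above 100 CPM. Serpina3m was at 555 CPM in replicate 3 of nuclear RNA at ZT2, with the others at 163 to 272. Serpinb9 was at 7.77 CPM in replicate 5 of polysomal RNA at ZT22, with the others at 2.55 to 4.47.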

How the results depend on the processing

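The number of genes called stayed within 1.5 times the reported one in every alternative of the 3 level comparisons: 10 to 12 against 11 for Bmal1-/-, 11 to 17 against 15 for nuclei and 10 to 13 against 11 for polysomes. Rhythm calls moved most: in wild-type total RNA from 2 to 0 in replicates 4 to 6 and to 4 without the high-Xist libraries, in nuclei from 0 to 1 without them, and in polysomes from 1 to 0 in either replicate set, without polysomal replicate 1 and with time as a factor. Site calls moved from 1 to 0 for Bmal1-/- (genes averaging at least 200 counts, or replicates 1 to 3) and to 2 without wild-type replicate 4 at ZT2, from 5 to 2 for nuclei (at least 200 counts, or replicates 4 to 6) and from 4 to 2 for polysomes (at least 200 counts). That filter leaves out Serpina7. The cause of the other moves was not tested.

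Direction turned in replicates 1 to 3 for Serpina7 (-0.77), Serpina3k (0.57) and Serpina1e (0.82) in polysomes. Those polysomal libraries were mostly most like total RNA libraries of replicates 4 to 6. The part of this mismatch in the turn was not tested. Direction also turned in replicates 1 to 3 for Serpina3c (-0.0053) and Serpina1c (0.091) in nuclei, and for Serpina1c against Bmal1-/- in replicates 4 to 6 (-0.30). With a replicate block within time points it was -0.041.

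The numbers do not pair the series by the labels. Deviations from group means correlated above 0.1 in 34 of 36 same-numbered pairs of nuclear and total RNA (mean r = 0.349, 32 of 36 nuclear libraries best matched by their own number), in 1 of 36 for polysomes and in 18 of 36 for Bmal1-/-. With the replicate block 11, 16 and 12 genes were called for Bmal1-/-, nuclei and polysomes (12, 17 and 10 within time points), 2 in the polysomal rhythm test, and Serpina1e was called in nuclei (0.52, adjusted p = 0.0349) and Serpina7 rhythmic in polysomes (1.99, adjusted p = 0.0168). Within time points Serpina7 lost its polysomal call (0.60, adjusted p = 0.0667), in a block whose polysomal libraries were not best matched by their own number. Among the genes followed singly, which were those called and the most abundant ones, neither block changed another call. The counts show that further genes, not followed singly, gained a level call. This held for Bmal1-/- and nuclei within time points, and for polysomes with the replicate number as a block. Depth limits Serpina7 in nuclei and the clade B genes, which had few counts per library.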
